A study of Homo sapiens with 13 samples.

Results

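The 429 tRNA genes of chromosomes 1 to 22 and X were taken from the RefSeq gene table of GRCh38.p14, out of 58419 genes that the table places on those chromosomes. The table holds 465 tRNA genes in all. Of these, 22 mitochondrial genes and 14 genes on other scaffolds were left out. Each tRNA gene was read with 1000 bp to both sides, and windows that overlap were joined into 325 loci. Genes were 70 to 108 bp long, with a median of 73 bp. CUT&RUN was done in PANC1 cells, a human line long grown from a pancreatic ductal carcinoma, of which a derivative that stably expresses BRG1 was used, and which the titles call "PANC1-BRG oe". CUT&RUN cuts out the DNA on which an antibody sits, by means of a nuclease coupled to that antibody, here after mild crosslinking of the cells. There were 2 libraries each for NRF2, BRG1, SMARCC1, H3K4me3, H3K27ac and H3K4me1, all from the BRG1-expressing line, and an IgG library that was not used here. Cells without added BRG1 were not analysed here, so every value describes the BRG1-expressing state only, and the labels do not say whether it is 1 clone or whether the libraries came from separate cultures.

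Transfer RNA genes are short and are read by RNA polymerase III, which is placed by TFIIIB at the gene start after TFIIIC has bound a pair of elements inside the gene, the A box and the B box. The human genome keeps many copies for most anticodons, often in clusters, and nucleosomes beside active copies are known to carry H3K4me3 and acetylation. NRF2 (gene NFE2L2) activates the antioxidant response. BRG1 (gene SMARCA4) is the motor protein of SWI/SNF remodellers, which slide and evict nucleosomes, and SMARCC1 belongs to the core of the same complexes. H3K4me3 and H3K27ac mark active promoters, and H3K27ac and H3K4me1 mark enhancers. A symbol such as TRH-GTG1-9 gives the amino acid letter (H, histidine), the anticodon (GTG), a number for the mature tRNA sequence and a number for the gene copy. TRX genes encode the initiator methionine tRNA and TRU genes the selenocysteine tRNA.

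The RefSeq promoter table, which gives 250 bases before to 50 after each gene start, has no entry under a tRNA gene's own symbol, and 14 tRNA genes lie whole inside the window of a neighbouring gene. The sequences of 8 of them are shown because they include copies with the same letters and different peaks. All are 5′ to 3′ from RefSeq GRCh38.p14. The gene table gives no strand, so the orientation was read from the letters. Capitals mark the A box letters (TNGNNNA) and then the B box letters (GTTCNANNC). The first pair are histidine copies, TRH-GTG1-9 at chr15:45201151-45201222 (+) and TRH-GTG1-3 at chr1:148281365-148281436 (+).

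TRH-GTG1-9: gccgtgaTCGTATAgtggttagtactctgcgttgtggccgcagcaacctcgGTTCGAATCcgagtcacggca

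TRH-GTG1-3: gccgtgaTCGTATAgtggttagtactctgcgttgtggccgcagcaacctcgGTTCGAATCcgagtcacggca

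The 2 histidine copies were identical over 72 of 72 bases. TRH-GTG1-9 had NRF2 fold enrichments of 16.4 and 13.3 in replicates 1 and 2, and TRH-GTG1-3 had 8.17 and 3.49. For H3K4me3 the order was the other way in the windows of the 2 genes, with 4.51 and 3.82 at TRH-GTG1-9 and 9.92 and 10.9 at TRH-GTG1-3. TRH-GTG1-9 shares a locus with TRH-GTG1-7 and TRH-GTG1-8, and over that whole locus H3K4me3 was at 8.86 and 8.99. The next pair are proline copies, TRP-TGG3-2 at chr14:20684016-20684087 (+) and TRP-TGG3-5 at chr16:3188094-3188165 (+).

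TRP-TGG3-2: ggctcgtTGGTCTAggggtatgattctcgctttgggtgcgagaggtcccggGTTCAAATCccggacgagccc

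TRP-TGG3-5: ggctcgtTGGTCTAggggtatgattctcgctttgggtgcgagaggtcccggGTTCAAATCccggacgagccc

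These too matched over 72 of 72 bases. TRP-TGG3-2 had NRF2 peaks of 7.88 and 3.36, whereas TRP-TGG3-5 had 3.56 in replicate 1 and no peak in replicate 2. H3K4me3 differed little between them, with 8.74 and 8.65 at TRP-TGG3-2 and 8.91 and 9.17 at TRP-TGG3-5. An asparagine pair differs by a few letters, TRN-GTT4-1 at chr1:16889677-16889750 (+) and TRN-GTT6-1 at chr1:143735920-143735993 (-).

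TRN-GTT4-1: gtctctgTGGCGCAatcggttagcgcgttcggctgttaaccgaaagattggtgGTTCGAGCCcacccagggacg

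TRN-GTT6-1: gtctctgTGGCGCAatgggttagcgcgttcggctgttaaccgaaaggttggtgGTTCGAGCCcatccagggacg

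Counted from 1 at the 5′ end, with the TRN-GTT4-1 base first, the differences are C17G, A47G and C65T, none of them in the capitals. TRN-GTT4-1 had H3K4me3 of 12.0 and 11.1 and H3K27ac of 5.09 and 3.32, and TRN-GTT6-1 had no peak of any target. Neither gene had an NRF2 peak. The last pair are an alanine and a leucine gene from chromosome 6, which carries the most tRNA genes, TRA-AGC2-2 at chr6:28863685-28863756 (-) and TRL-AAG2-2 at chr6:28943622-28943703 (-).

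TRA-AGC2-2: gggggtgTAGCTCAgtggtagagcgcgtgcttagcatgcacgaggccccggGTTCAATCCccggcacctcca

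TRL-AAG2-2: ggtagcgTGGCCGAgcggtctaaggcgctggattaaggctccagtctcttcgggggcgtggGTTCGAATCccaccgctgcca

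TRA-AGC2-2 had NRF2 of 7.53 and 6.51 with H3K4me3 of 11.2 and 11.4, and TRL-AAG2-2 had NRF2 of 8.49 and 7.37 with H3K4me3 of 6.34 and 6.30. All 14 genes that lie whole in a window hold the B box letters. Over promoter windows, GTTCNANNC on either strand occurs in 72.4% of the 29 windows that touch a tRNA gene, against 7.48% of all 35116. The loose A box TNGNNNA is in 96.6% of those 29 and in 91.6% of all, and the stricter TGGCNNAG in 13.8% and 11.8%. The core of the antioxidant response element to which NRF2 binds as a heterodimer, TGACNNNGC on either strand, is in 10.3% of the 29 windows and 13.3% of all, and in none of the 14 tRNA genes. The 14 genes are far shorter than a window of 300 bases, so their count cannot be set against these shares. Neither the 29 windows nor the 14 genes were chosen for holding NRF2. The AP-1 core TGANTCA is in 0 of the 29 windows and in 7.71% of all, and the letters TATAA are in 31.0% and 20.4%.

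NRF2 and H3K4me3 each lay at 1 in 2 tRNA genes, H3K27ac at far fewer, and BRG1 and SMARCC1 at none. A target is said to be held by a gene when at least 1 peak of each of its 2 libraries overlaps the gene with 1000 bp to both sides. NRF2 was held by 217 tRNA genes (50.6%, exact 95% interval 45.7 to 55.4%), against 0.0278% of 1461560 consecutive tiles as long as the median tRNA window. Replicate 1 had a peak at 271 tRNA genes and replicate 2 at 222, so the share per library was 57.5% ± 8.08 (SD, n = 2). Of the genes with a peak in replicate 2, 97.7% also had one in replicate 1. H3K4me3 was held by 217 genes as well (50.6%), against 1.61% of tiles, and its libraries gave 231 and 222 genes (52.8% ± 1.48). H3K27ac was held by 44 genes (10.3%, 7.55 to 13.5%), against 1.67% of tiles, from 54 and 48 genes per library. H3K4me1 was held by 1 gene (0.233%), against 1.69% of tiles, a share that would give 7.27 genes of 429. Intervals cover counting error only, and tRNA genes of 1 locus share peaks, so they are not independent of each other. Counted once per locus, NRF2 was held by 143 of 325 loci (44.0%), H3K4me3 by 153 (47.1%) and H3K27ac by 38 (11.7%).

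**Figure D1:**
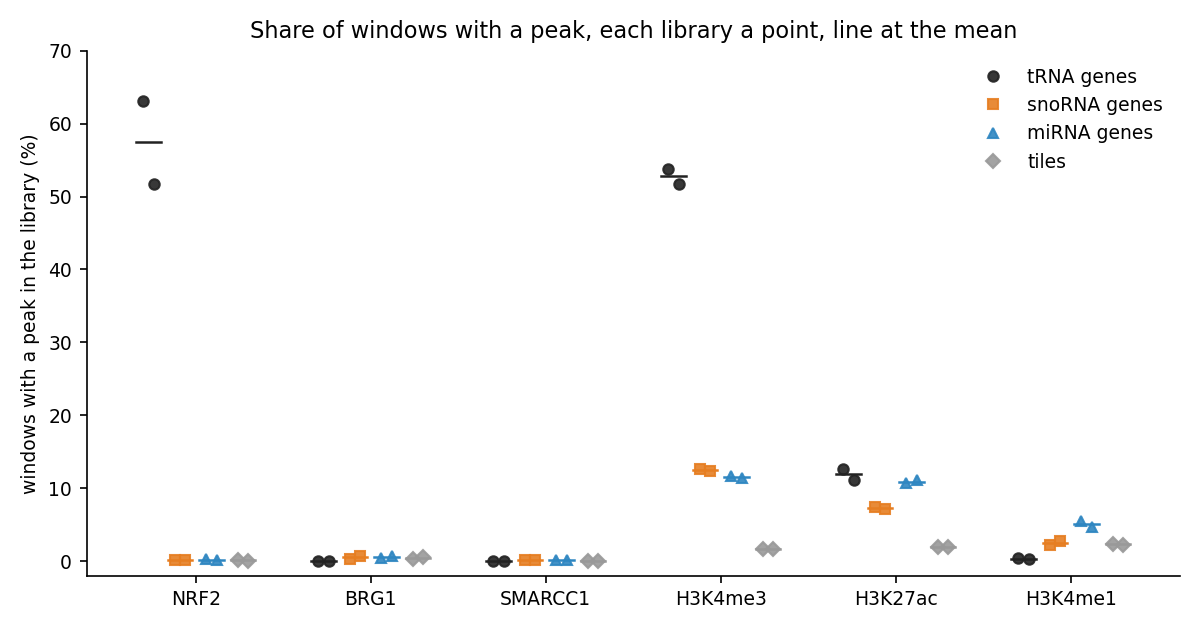
Share of windows with a peak in each library, in percent (y axis), for the 6 targets (x axis). Each point is a library, the short line is the mean of 2, and tRNA genes are set beside snoRNA genes, miRNA genes and tiles of the genome. NRF2 lies at 63.2% and 51.7% of tRNA genes and near 0 in the other sets, and BRG1 and SMARCC1 lie at 0 of 429 tRNA genes.

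BRG1 had no peak within 1000 bp of any tRNA gene in either library, against 0.16% of tiles, a share that would give 0.687 genes of 429. SMARCC1 had none either, against 0.0133% of tiles. A count of 0 of 429 allows a share of up to 0.699% by the limit of 3 counts (0.856% by the exact 95% interval), so the shares of BRG1 and SMARCC1 cannot be told from those of the tiles. The nearest BRG1 peak lay 4329 bp from a tRNA gene in replicate 1 and 1286 bp in replicate 2, and the nearest SMARCC1 peak 16405 and 19974 bp. Within 5000 bp, BRG1 peaks lay at 1 and 14 tRNA genes and H3K4me1 peaks at 13 and 5.

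Small nucleolar and micro RNA genes read from the same table did not share this profile. In both libraries, NRF2 lay at 0 of 1190 snoRNA genes (0.0%) and at 2 of 1911 miRNA genes (0.105%). H3K4me3 was held by 12.3% of snoRNA genes and 11.1% of miRNA genes, and H3K27ac by 5.88% and 9.73%. H3K27ac lay at a like share of tRNA genes and miRNA genes, whereas H3K4me3 did not. BRG1, SMARCC1 and H3K4me1 were held by 0.252%, 0.084% and 1.85% of snoRNA genes, and BRG1 and H3K4me1 by 0.157% and 3.92% of miRNA genes. Over all 58419 genes the shares were 0.82% for NRF2, 29.1% for H3K4me3, 24.2% for H3K27ac, 14.1% for H3K4me1, 2.62% for BRG1 and 0.37% for SMARCC1, but many of those genes are far longer than a tRNA gene.

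At genes with a peak, the strength was read from the deposited fold enrichment of the highest peak in the window. Over the 217 genes that hold NRF2 it ran from 2.32 through a median of 7.46 to 23.1 in replicate 1, and from 1.9 through 5.18 to 20.7 in replicate 2. For H3K4me3 the values were 2.79, 7.03 and 38.6 in replicate 1 and 2.51, 6.34 and 37.9 in replicate 2. H3K27ac was weaker and narrower in range, with 2.26, 3.95 and 8.31 in replicate 1 and 2.2, 4.01 and 6.78 in replicate 2. The 2 libraries ranked genes in a like order for H3K4me3 (Pearson's r of log2 fold 0.917), less closely for NRF2 (0.770) and H3K27ac (0.629). These are descriptions across genes, which share libraries and, within a locus, peaks.

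NRF2 peaks at tRNA genes stood at the strong end of their libraries. Of the 50 strongest NRF2 peaks, 45 in replicate 1 and 47 in replicate 2 lay at tRNA genes, although tRNA genes held 21.1% and 26.3% of all NRF2 peaks. Their median fold was 4.93 and 4.44, against 3.68 and 3.49 for NRF2 peaks elsewhere, and their median width was 405 and 332 bp, against 226 and 209 bp. H3K4me3 peaks at tRNA genes were the reverse, with median folds of 5.59 and 5.67, against 8.78 and 9.76 for H3K4me3 peaks elsewhere, and widths of 632 and 633 bp, against 1022 and 1104 bp. None of the 50 strongest H3K4me3 or H3K27ac peaks lay at a tRNA gene.

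Each target had its own place relative to the gene. NRF2 peaks covered the midpoint of 25.6% ± 7.25 of all tRNA genes (mean ± SD of 2 libraries), 37.6% and 39.7% of positions 200 bp to the lower and upper side, and 9.79% and 10.4% at 1000 bp. H3K4me3 peaks covered the midpoint of 2.21% ± 0.494, then 19.9% and 20.6% at 200 bp and 25.9% and 26.2% at 400 bp. H3K27ac covered no midpoint, and 4.66% and 3.96% of positions at 600 bp. Summits followed the same order, at a median distance from the gene of 212 and 201.5 bp for NRF2, 454 and 452 bp for H3K4me3, and 637 and 614 bp for H3K27ac. Only 4 NRF2 summits in replicate 1 and 3 in replicate 2 fell inside a tRNA gene, and no H3K4me3 or H3K27ac summit did.

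**Figure D2:**
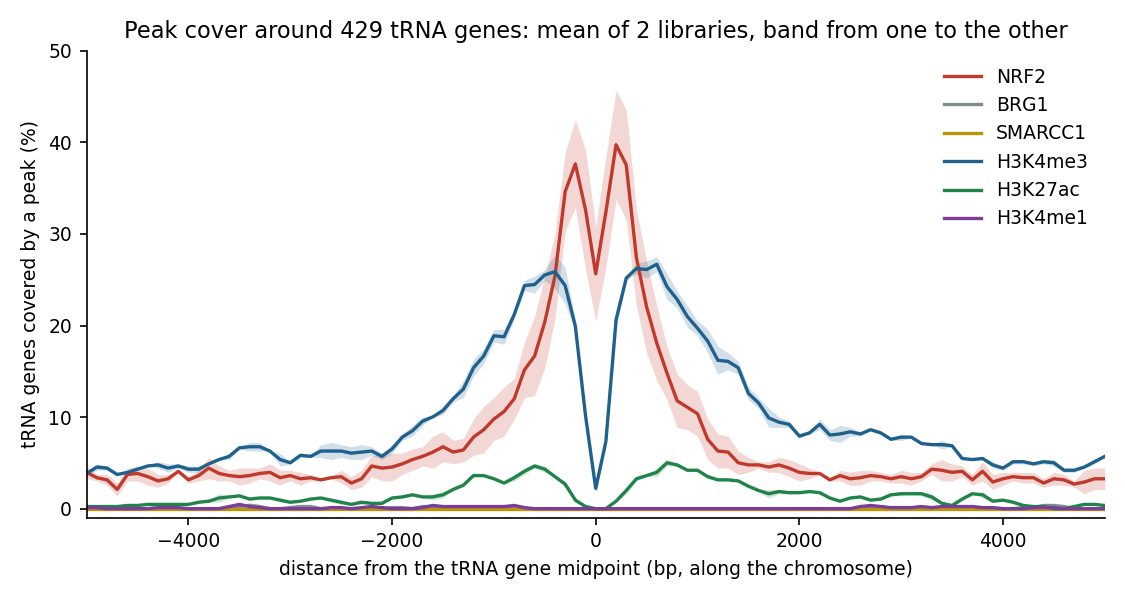
Share of the 429 tRNA genes covered by a peak (y axis, percent) at each distance from the gene midpoint (x axis, bp along the chromosome, not turned by strand). Lines are the mean of 2 libraries and bands run from the lower to the higher library. NRF2 peaks at 200 bp to either side with 25.6% at the midpoint, H3K4me3 falls to 2.21% at the midpoint, and H3K27ac is low and lies farther out.

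Of genes with an NRF2 peak in the window, 58.3% in replicate 1 and 47.7% in replicate 2 had a peak that touched the gene itself. Of those with H3K4me3 the share was 6.06% and 9.01%. H3K4me3 instead lay on both sides without touching the gene at 33.8% and 27% of the genes that had it, and on 1 side only at 60.2% and 64.0%. The lower and upper sides were used equally, by 69 and 70 genes in replicate 1 and by 69 and 73 in replicate 2. H3K27ac touched no tRNA gene and lay on 1 side only at 83.3% and 75%. Copies with the same letters cannot be told apart by reads that lie inside them, and how such reads were placed is not given in the sources used here. Whether this bears on the low cover over the genes was not tested.

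NRF2 and H3K4me3 shared most of their tRNA genes. Both were held by 168 genes, which is 77.4% of the genes with NRF2 (71.3 to 82.8%) and 77.4% of those with H3K4me3. H3K4me3 was held by 77.4% of the 217 genes with NRF2 and by 23.1% of the 212 without it (17.6 to 29.4%), a gap that was 77.9 against 12.7% when replicate 1 of each target was used and 77.9 against 23.7% with replicate 2. The gap was narrower near coding genes, where H3K4me3 was held by 81.4% of near genes with NRF2 (70.3 to 89.7%) and by 63.9% of those without (46.2 to 79.2%), at 83.5 against 46.7% with replicate 1 and 86.1 against 67.6% with replicate 2. Near genes are those with a coding gene end at most 5000 bp away. Among the 208 tRNA genes over 20000 bp from any coding gene end, H3K4me3 was held by 69.6% of those with NRF2 and by 11.6% of those without. H3K27ac was held by 11.1% of genes with NRF2 (7.22 to 16.0%) and by 9.43% of those without (5.86 to 14.2%). This comparison depended on the library, since it was 15.9 against 6.96% with replicate 1 of each target and 13.1 against 9.18% with replicate 2. It also depended on distance. Among near genes, H3K27ac was held by 27.1% with NRF2 (17.2 to 39.1%) and by 38.9% without (23.1 to 56.5%). By library this was 33.0 against 40.0% and 29.2 against 35.3%. Among far genes it was 3.40 against 3.41%, and by library 7.22 against 3.50% and 5.33 against 4.05%.

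The most common state with a peak was NRF2 with H3K4me3 and no H3K27ac, at 145 genes (33.8%). A further 23 genes held all 3 of NRF2, H3K4me3 and H3K27ac, 48 held NRF2 alone of the 3, and 31 held H3K4me3 alone. H3K4me3 with H3K27ac and without NRF2 was held by 18 genes. H3K27ac lay without H3K4me3 at 3 genes, named here after their values were seen, which are TRA-TGC3-2 with H3K27ac of 3.49 and 4.06, TRE-TTC2-1 with 2.26 and 3.27, and TRV-TAC1-2 with 3.87 and 3.34. NRF2 or H3K4me3 was held by 266 genes (62.0%), and 134 (31.2%) had no peak of any target in any library. NRF2 was in replicate 1 only at 54 genes, at a median fold of 4.19, and in replicate 2 only at 5. Of those 54, 30 held H3K4me3 and 32 were solitary.

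The strength of NRF2 was at most weakly related to that of H3K4me3. Over the 168 genes with both, Pearson's r of the log2 folds was 0.00203 and Spearman's rho 0.0391, over 112 loci with both 0.112 and 0.140, and over 111 far genes 0.148 and 0.200. This is a description across genes, which share libraries and peaks. H3K4me3 had median folds of 6.41 and 6.10 at genes with NRF2, against 10.2 and 9.22 at those without. These groups differ in distance, since 57 of the 168 with NRF2 were near a coding gene end, and 23 of the 49 without. H3K4me3 itself had median folds of 8.91 and 8.99 at near genes, against 6.34 and 5.99 at far genes. The mark was stronger where H3K27ac was held too, at 14.0 and 14.8, against 6.34 and 6.05. These groups also differ in distance, since 32 of the 41 genes with both marks were near, and 48 of the 176 without H3K27ac. NRF2 was at 6.76 and 4.60 with H3K27ac, against 7.53 and 5.28 without.

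**Figure D3:**
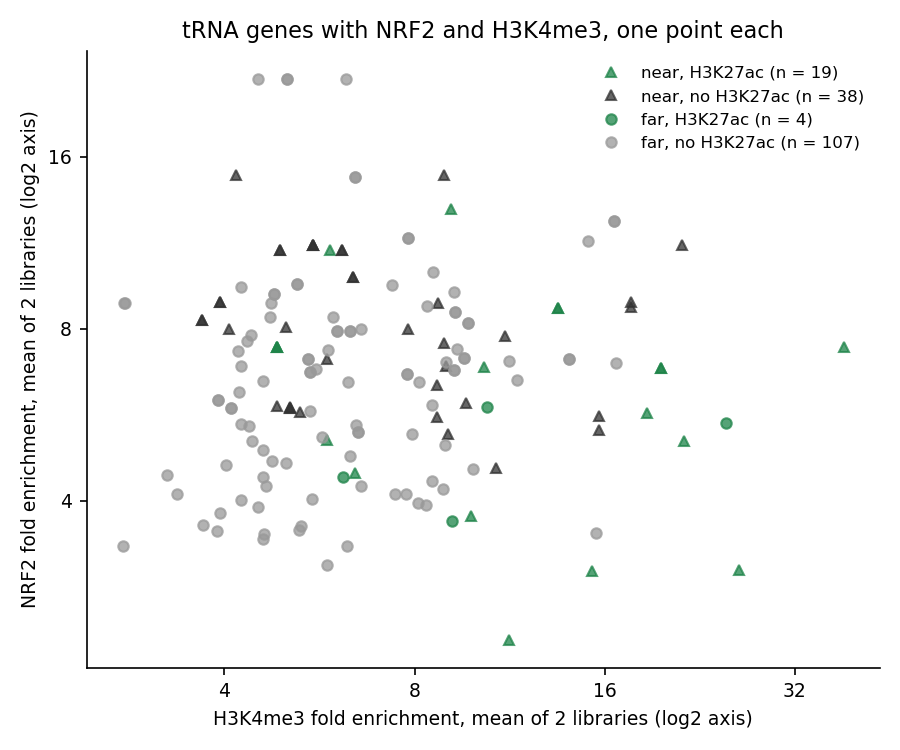
NRF2 fold enrichment (y axis, log2) against H3K4me3 fold enrichment (x axis, log2) for the 168 tRNA genes that hold both, as means of 2 libraries. Triangles are genes within 5000 bp of a coding gene end, circles the others, and green marks H3K27ac. Points of 1 locus can coincide, r over all 168 genes was 0.00203, and most green points are triangles.

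Acetylation went with coding gene ends. Of near genes, H3K27ac was held by 33 of 106 (31.1%, 22.5 to 40.9%), against 11 of 323 far genes (3.41%, 1.71 to 6.01%). The difference was 28.4 percentage points in replicate 1 and 26.5 in replicate 2. It depended on the window, which can include the coding gene end itself. For genes held in both libraries it was 27.7 points, against 5.04 with 200 bp to both sides and 48.2 with 5000 bp. H3K4me3 was held by 75.5% of near genes and 42.4% of far genes, a difference of 32.5 and 37.8 points by library, and NRF2 by 66.0% and 45.5%, a difference of 30.1 and 21.5 points. An H3K4me3 peak at a tRNA gene and away from coding ends overlapped an H3K27ac peak of the same replicate in 10.3% of 203 and 11.9% of 177 cases. H3K4me3 peaks away from both coding ends and tRNA genes did so in 46.9% and 48.9%, at similar strength (median folds of 5.05 and 5.21 at tRNA genes, against 4.94 and 5.06). At a coding end, the shares were 50% and 47.0% for H3K4me3 peaks at tRNA genes, and 64.1% and 67.7% for the others. Within 1000 bp of coding gene ends in general, H3K4me3 was held by 58.0%, H3K27ac by 44.1% and NRF2 by 0.212% of 19821 genes.

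In finer classes of distance, H3K27ac was concentrated within 1000 bp and NRF2 was not. H3K27ac was held by 50.9% of the 55 tRNA genes up to 1000 bp away, by 9.80% of 51 from there to 5000 bp, by 5.22% of 115 from there to 20000 bp and by 2.4% of 208 beyond. H3K4me3 was held by 92.7%, 56.9%, 58.3% and 33.7% of these classes. NRF2 was held by 60.0%, 72.5%, 59.1% and 38.0%, with its lowest class beyond 20000 bp. Windows reach 1000 bp from the tRNA gene, so in the first class they include the coding gene end itself. Of coding genes in general, 44.1% held H3K27ac and 58.0% held H3K4me3 within 1000 bp of an end. Whether peaks of the first class belong to the coding gene was not tested.

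Clusters were formed from neighbours at most 10000 bp apart, which gave 80 clusters with 293 genes and 136 solitary genes. NRF2 was held by 37 solitary genes (27.2%, 19.9 to 35.5%) and by 180 clustered genes (61.4%, 55.6 to 67.0%). In replicate 1 alone 50.7% of solitary genes had an NRF2 peak, against 68.9% of clustered genes, and in replicate 2 alone 27.9%, against 62.8%, so the size of this gap depends on the library. H3K27ac went the other way, held by 21.3% of solitary genes and 5.12% of clustered genes. Of H3K4me3 the shares were 44.1% and 53.6%. Solitary genes that held H3K4me3 had more of it, at median folds of 10.6 and 10.8, against 6.09 and 5.99 for clustered genes.

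Distance and clustering were then crossed, which gave 4 classes. The share with NRF2 was lower for solitary genes at both distances, at 38.1% of 42 near solitary genes and 84.4% of 64 near clustered genes, and at 22.3% of 94 far solitary genes and 55.0% of 229 far clustered genes. In replicate 1 alone NRF2 lay at 76.2% of near solitary and 92.2% of near clustered genes, and in replicate 2 alone at 38.1% and 87.5%. H3K27ac was held by 45.2% of near solitary and 21.9% of near clustered genes, and by 10.6% of far solitary and 0.437% of far clustered genes. By cluster size, NRF2 was held by 27.2% of solitary genes, 60.5% of genes in clusters of 2 to 3, 73.1% in clusters of 4 to 9 and 36.0% in clusters of 10 or more. The last class has 50 genes in 3 clusters, 1 of which had no NRF2 peak at all.

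**Figure D4:**
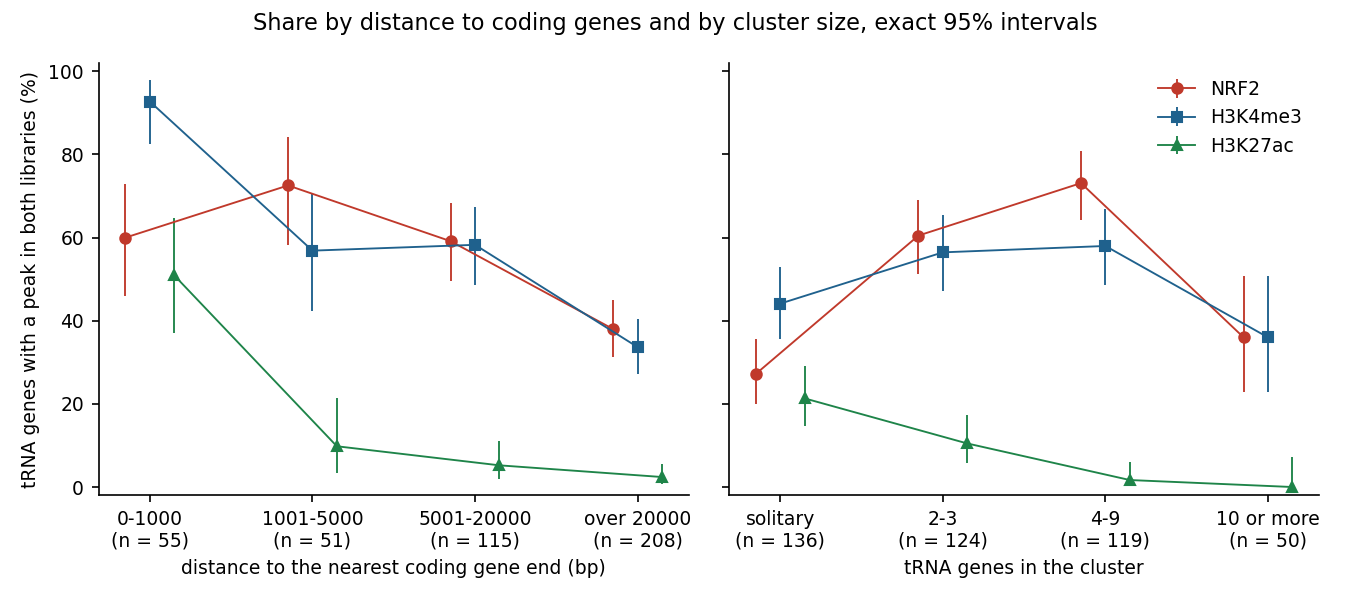
Share of tRNA genes with a peak in both libraries (y axis, percent) by distance to the nearest coding gene end (left) and by cluster size (right). Bars are exact 95% intervals for counting error. H3K27ac is at 50.9% within 1000 bp and at 2.4% beyond 20000 bp, and NRF2 is highest, at 73.1%, in clusters of 4 to 9 genes.

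By amino acid, NRF2 was spread over nearly all tRNA families but in unequal shares. It was held by at least 1 gene in 21 of 22 amino acid groups and 46 of 49 anticodon groups. Among groups of at least 10 genes, it was held by 22 of 26 serine genes (84.6%, 65.1 to 95.6%), 16 of 20 threonine, 14 of 20 proline, 18 of 26 arginine, 7 of 11 phenylalanine and 17 of 27 lysine genes. Shares near the average were found for leucine (18 of 32), aspartate and tyrosine (7 of 13 each), alanine (19 of 37), glutamine (9 of 19) and isoleucine (10 of 23). Lower ones were found for valine (12 of 30), glutamate (5 of 15), glycine (7 of 30), asparagine (4 of 21), elongator methionine (2 of 11) and cysteine (4 of 29, 13.8%, 3.89 to 31.7%). A tandem cluster of 24 genes on chromosome 1 held NRF2 at none. It contains 5 of the aspartate, 5 of the leucine, 4 of the glutamate and 10 of the glycine genes. The shares of these amino acids therefore depend on that cluster as well. The place of valine and glutamate rests on replicate 2, with 43.3% and 33.3%, since in replicate 1 both were at 60%, close to that library's 63.2% of all tRNA genes. The 26 genes of amino acids with fewer than 10 each, which are histidine, tryptophan, initiator methionine and selenocysteine, held NRF2 at 19, H3K4me3 at 18 and H3K27ac at 3. Among groups of at least 10 genes, H3K4me3 was highest for arginine (22 of 26) and proline (15 of 20) and lowest for cysteine (4 of 29) and asparagine (5 of 21). NRF2 was held by more genes than H3K4me3 for serine (22 and 16), alanine (19 and 15), lysine (17 and 13) and threonine (16 and 12), and by fewer for arginine (18 and 22).

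**Figure D5:**
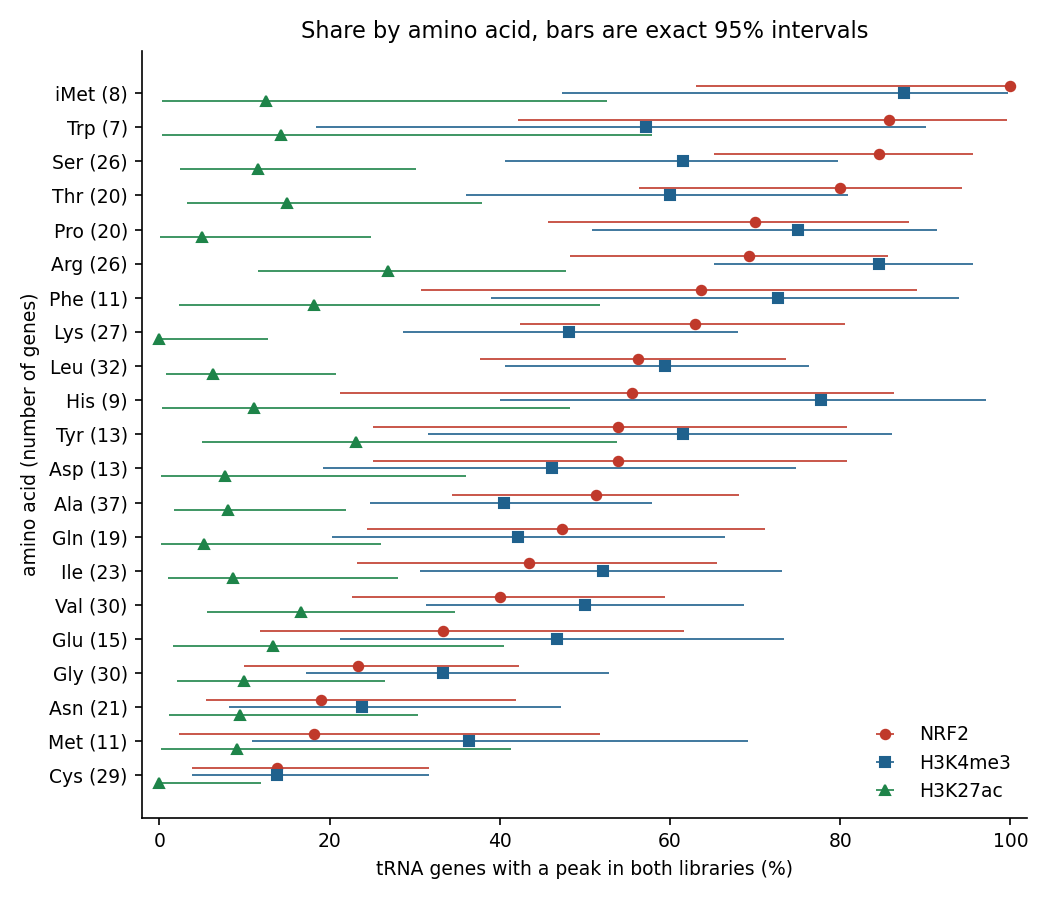
Share of tRNA genes with a peak in both libraries (x axis, percent) by amino acid (y axis, number of genes in brackets, ordered by NRF2), with exact 95% intervals. The selenocysteine group of 2 genes is not drawn. Initiator methionine, tryptophan and serine lie at the top for NRF2, cysteine, elongator methionine and asparagine at the bottom, and many intervals overlap.

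Shares by anticodon are given for a few families. Of alanine genes, NRF2 was held by 8 of 25 with AGC, 4 of 4 with CGC and 7 of 8 with TGC. Of proline genes it was held by 8 of 9 with AGG and 4 of 7 with TGG, and H3K4me3 by 6 and 7. In replicate 1 alone the NRF2 order was the other way, at 88.9% of AGG and 100% of TGG genes. Of glutamate genes NRF2 was held by 4 of 8 with CTC and 1 of 7 with TTC, but in replicate 1 alone it lay at 50% and 71.4%. The chromosome 1 tandem cluster includes 4 of the CTC genes, none of which held NRF2. All 4 CCG and all 4 CCT arginine genes and all 6 TGT threonine genes held NRF2. No gene held it in 3 anticodon groups, which are isoleucine GAT (3 genes), selenocysteine TCA (2 genes) and tyrosine ATA (1 gene). These groups are small, and their members often share a locus.

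All 8 initiator methionine genes, TRX-CAT1-1 to TRX-CAT1-8, held NRF2. The strongest was TRX-CAT1-7 with 14.3 and 8.70, in a locus with TRG-GCC2-3 on chromosome 6. TRX-CAT1-3 had 12.6 and 5.82, TRX-CAT1-5 12.4 and 6.51, TRX-CAT1-4 9.42 and 7.71, and TRX-CAT1-6 6.10 and 2.79. TRX-CAT1-8 on chromosome 17 had 5.34 and 4.87 and was the 1 initiator gene with no H3K4me3 peak, and TRX-CAT1-2 had 4.06 and 5.07. TRX-CAT1-1, which lies 257 bp from an end of ILF2, had the least NRF2 of the 8, 3.27 and 2.79, and the most H3K4me3, 31.6 and 20.7. It alone of the 8 held H3K27ac, at 3.77 and 3.86. The elongator methionine genes, whose tRNA carries the same anticodon CAT, held NRF2 at 2 of 11. The selenocysteine genes TRU-TCA1-1, at chr19:45478601-45478687, and TRU-TCA2-1, inside PARVB on chromosome 22, held nothing. TRU-TCA1-1 had an H3K4me3 peak of 2.50 in replicate 2 alone.

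Gene copies that share a mature tRNA sequence differed in whether they held NRF2. Of 57 mature sequences with at least 2 gene copies, 14 held NRF2 at every copy, 32 at some and 11 at none. Of the 20 with at least 5 copies, 17 were mixed and 3 held it at every copy, which are TRK-TTT3, TRS-AGA2 and TRX-CAT1. The mixed ones include TRD-GTC2, TRE-CTC1, TRG-GCC1, TRG-TCC2 and TRL-CAG1, which have copies in a chromosome 1 tandem repeat. They held NRF2 at 0 of 22 copies inside it and 13 of 14 outside, and how reads were placed among its units is not given. A mixed call can also rest on replicate 2. TRP-TGG3 held NRF2 at 2 of 5 copies, although in replicate 1 alone NRF2 lay at 100% of TGG proline genes. Of the 9 TRH-GTG1 copies, 5 held NRF2 and 7 held H3K4me3, while TRH-GTG1-2 and TRH-GTG1-6 had no peak of NRF2, H3K4me3 or H3K27ac. Genes with a high sequence number held less. NRF2 was held by 57.8% of genes numbered 1, 67.3% of those numbered 2, 63.0% of 3, 44.4% of 4 to 5 and 18.7% of 6 or more. H3K4me3 was held by 62.1%, 63.5%, 59.3%, 48.6% and 16.0% of these, so both were lowest in the last class. As a related set, 104 tRNA-like pseudogenes of the table were looked at, and of the 93 whose windows are free of tRNA gene windows, 1 held NRF2 and 2 held H3K4me3.

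Chromosome 6 carries 154 of the 429 genes, and 96 of them held NRF2 (62.3%) and 86 H3K4me3 (55.8%), but 3 H3K27ac (1.95%). On chromosome 17, 28 of 33 genes held NRF2 and 23 H3K4me3, and on chromosome 11, 10 and 11 of 13. Chromosome 5 had 11 and 9 of 18, chromosome 14 had 10 and 12 of 19, and chromosome 16 had 11 and 13 of 26. Chromosome 1 was lower, with 19 and 26 of 85, and chromosome 7 lowest, with 1 and 1 of 22. The 59 genes on chromosomes with fewer than 10 each held NRF2 at 31, H3K4me3 at 36 and H3K27ac at 27, so 45.8% of them held H3K27ac.

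The low counts of chromosome 7 and of cysteine overlap. At chr7:149310190-149707740, 18 cysteine genes and TRS-AGA5-1 lie within 397551 bp, and none of the 18 held NRF2 or H3K4me3. TRC-GCA17-1 had a single NRF2 peak, of 3.43, in replicate 1. The 11 cysteine genes elsewhere held NRF2 at 4 and H3K4me3 at 4. Peaks were found between the genes of this span, with 3 and 3 for H3K4me3 and 5 and 6 for H3K27ac. The 1 gene of chromosome 7 that held both NRF2 and H3K4me3 was TRR-CCT4-1, 228 bp from an end of LUC7L2, with NRF2 of 4.34 and 3.19 and H3K4me3 of 8.96 and 10.7.

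The largest cluster, chr1:161440171-161480636, has 24 genes and held NRF2 at none and H3K4me3 at 3. Its span had no peak of NRF2, BRG1, SMARCC1, H3K27ac or H3K4me1 in either library, and 2 H3K4me3 peaks in each. It is a tandem repeat in which the 5 TRD-GTC2 copies start 7381 to 7418 bp apart. The genes at its lower end, TRD-GTC2-1 and TRL-CAG1-1, had H3K4me3 of 5.90 and 7.64. Of mature sequences that also have copies elsewhere, 0 of 22 copies inside the cluster held NRF2, against 13 of 14 outside, and 2 of 22 held H3K4me3, against 11 of 14. TRD-GTC2 itself held NRF2 at 0 of 5 copies inside and 6 of 6 outside. TRL-CAG1-6, in the next cluster along the chromosome, had NRF2 of 10.7 and 11.3. How reads that match several repeat units were placed is not given in the sources used here. Whether this bears on the missing peaks was not tested.

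The other large clusters described here held NRF2 at 50% of their genes or more. At chr16:3150674-3192060, 7 of 14 genes held NRF2 and 8 held H3K4me3, with NRF2 in replicate 1 at 11. At chr6:26299677-26331515, 11 of 12 genes held NRF2 and 7 held H3K4me3. All 8 genes of chr11:59550629-59566452 held both, and of the 8 genes at chr6:28789770-28823389, 6 held NRF2 and 4 H3K4me3. H3K27ac was held by none of the genes in these 5 clusters. All 7 genes of chr17:8220869-8227064, added after its values were seen, held NRF2 while 2 held H3K4me3.

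The strongest NRF2 locus was chr11:59550629-59551837, where TRV-TAC1-1, TRV-TAC2-1, TRR-TCT3-2 and TRL-TAA3-1 lie within 1 of those clusters. It had NRF2 of 23.1 and 20.7, the highest of all NRF2 peaks in both libraries, with H3K4me3 of 7.26 and 5.20. TRF-GAA1-2 and TRE-CTC1-6 at chr6:28981672-28982270 had NRF2 of 16.9 and 12.6 and H3K4me3 of 6.87 and 5.99. The histidine locus chr15:45198606-45201222, with TRH-GTG1-7, TRH-GTG1-8 and TRH-GTG1-9 at the end of SHF, had NRF2 of 16.4 and 13.3. Its H3K4me3 was 8.86 and 8.99. TRS-AGA2-5, 456 bp from an end of CFAP418, had 14.3 and 11.6, and it alone of the 10 strongest NRF2 loci held H3K27ac, at 2.92 and 3.60.

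Among the next loci, TRP-AGG2-4 and TRP-TGG2-1 at chr11:76235513-76235896 had NRF2 of 13.6 and 11.1 with H3K4me3 of 15.9 and 17.3. TRW-CCA3-3, TRS-GCT4-3, TRT-AGT1-1 and TRI-AAT5-5 at chr17:8186358-8187666 had NRF2 of 12.1 and 10.4 with H3K4me3 of 18.3 and 24.2. TRL-CAG1-6 and TRG-TCC2-6 at chr1:161530342-161531184 had the lower H3K4me3 of 4.77 and 5.03. TRA-AGC2-1 at chr6:28838444-28838515 had NRF2 of 13.9 and 8.89, and TRK-CTT1-2 at chr15:78860562-78860634 had 10.2 and 8.89. All 10 of these loci held H3K4me3, over a range of mean folds from 4.90 to 21.2, so the strongest NRF2 loci did not have a common level of the mark.

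The strongest H3K4me3 loci were other genes, most of them beside a coding gene end. TRG-CCC2-1 at chr2:70248991-70249061, 198 bp from an end of TIA1, had H3K4me3 of 38.6 and 37.9, H3K27ac of 7.18 and 6.29 and NRF2 of 6.43 and 8.41. TRQ-CTG1-4, 358 bp from RAB11A, had H3K4me3 of 32.7 and 36.2, and TRF-GAA1-6 with TRN-GTT2-6, 271 bp from NDUFS7, had 26.6 and 30.2. TRE-TTC1-2, 577 bp from ELF1, had H3K4me3 of 25.5 and 24.8 and the highest H3K27ac of a replicate, 8.31, with 6.26 in the other. The exception was TRD-GTC2-8, which lies inside LTA4H and 7428 bp from its nearer end, with H3K4me3 of 24.0 and 25.8, H3K27ac of 5.89 and 2.94 and NRF2 of 6.48 and 4.46. NRF2 was held by TRG-CCC2-1 and TRD-GTC2-8 alone of these 5 loci.

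H3K27ac was also strong at TRG-TCC1-1 with TRV-CAC3-1, 228 bp from DPP9, with 5.33 and 6.78, and at TRY-GTA5-1, TRY-GTA5-2 and TRA-AGC8-2, 16 bp from TRIM55, with 5.29 and 5.85. TRL-CAG1-7, 10783 bp from BTN1A1, had 5.26 and 5.58 and was the strongest of the 11 far genes with H3K27ac. The 1 gene with H3K4me1 was TRI-TAT1-1 at chr19:39412168-39412260, 409 bp from an end of PLEKHG2, with H3K4me1 of 2.67 and 2.31. It was also the 1 locus that held all 3 marks and NRF2, with H3K4me3 of 15.2 and 15.3, H3K27ac of 5.05 and 3.68 and NRF2 of 3.04 and 2.98. Its NRF2 peaks ranked 1310 of 1538 and 766 of 919, near the weak end of both libraries.

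Other genes read by RNA polymerase III had some of the same peaks. Of 20 such genes apart from 5S ribosomal RNA, NRF2 was held by 8, H3K4me3 by 17 and H3K27ac by 7, and BRG1, SMARCC1 and H3K4me1 by none. The 4 Y RNA genes, whose RNAs bind the Ro60 protein, all held NRF2, from 7.49 and 10.4 at RNY4 to 5.21 and 4.32 at RNY3. The vault RNA genes VTRNA1-1 and VTRNA1-2, which like tRNA genes have their A and B boxes inside, had NRF2 of 8.83 and 5.93, and 7.24 and 5.92, and VTRNA2-1 had none. RMRP had 3.34 and 2.26 with H3K4me3 of 14.2 and 17.9, and RNU6ATAC 4.21 and 4.15 with H3K4me3 of 4.44 and 3.89. RN7SK, the RNU6 genes and the RN7SL genes held H3K4me3. NRF2 had a peak in replicate 1 alone at RN7SK (3.59), RNU6-7 and RNU6-2 (4.99 each), RNU6-9 (3.36) and RN7SL2 (3.92). VTRNA1-3 too had an NRF2 peak in replicate 1 alone, of 6.24, and it held H3K4me3. Of the 17 genes for 5S ribosomal RNA, 2 held H3K4me3 and none NRF2.

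Genes that encode the proteins of tRNA synthesis carried the marks of active promoters. Of 68 genes read within 1000 bp of either end, 67 held H3K4me3 and 56 H3K27ac, against 58.0% and 44.1% of coding genes. All 13 RNA polymerase III subunit genes held H3K4me3 and 10 held H3K27ac. All 17 initiation factor genes held H3K4me3 and 12 H3K27ac. BRF1, a subunit of TFIIIB, GTF3C5, a subunit of TFIIIC, and MAF1, a repressor of the polymerase, were among the 5 without H3K27ac. All 22 genes for cytosolic aminoacyl-tRNA synthetases and related enzymes held H3K4me3, and 20 held H3K27ac. Of 16 processing and export genes 15 held H3K4me3 and 14 H3K27ac. None of the 68 held NRF2, which 0.212% of coding genes hold, and none held BRG1, while SMARCC1 was held by TSEN15, and H3K4me1 by 4. Among coding genes in general BRG1 was held by 0.565%, SMARCC1 by 0.288% and H3K4me1 by 5.73%. As a check of the label, 4 of 6 ductal epithelial genes held H3K4me3 and 5 of 6 H3K27ac, and 0 of 9 acinar, endocrine and leukocyte genes held either.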

How the data were processed

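CUT&RUN peak lists of 12 libraries from 1 PANC1 line were read, 2 for each of 6 targets, grouped as the titles give target and replicate. GRCh38 is the build in the submitters' processing notes, which also list MACS2 2.2.7.1, Picard 2.23.9, SAMtools 1.9 and Bowtie2 2.4.1, without roles or settings. Peaks were listed per library. Strength is the fold enrichment in the deposited peak lists, and what it is relative to is not given in the sources used here. The deposited −log10 p and −log10 q served as thresholds in alternatives, the deposited score was not used, and the deposited summit offset gave summit positions. Depth is unknown, since the lists hold no read counts, and where no peak is listed the library may have been too shallow.

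Overlap meant at least 1 bp. The highest fold in a window was its strength. Shares have exact Clopper-Pearson intervals at 95%. No p-value is given: 2 libraries against 2 cannot go below 0.333 in an exact permutation test, and tRNA genes of a cluster share peaks. If replicates are technical, their spread is too. Overlap and intervals were tested on simulated data. Gene positions and promoter sequences are from RefSeq GRCh38.p14, which gives no strand for tRNA genes, and rows whose positions restart outside the chromosome's own order were read as other scaffolds.

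Named were the 10 strongest NRF2 loci and the 5 strongest for each mark by mean rank of fold over both libraries, the 5 largest clusters, selenocysteine and initiator methionine genes, and loci with all 3 marks and NRF2. Genes with sequences shown were chosen after their values were seen. Some listed genes are not reported here by name. The members, lists and this rule were chosen with earlier results of these data known. Alternatives were other thresholds, windows, distances, loci, chromosome 6 left out, each library left out and same-numbered libraries paired; the contrast of solitary and clustered genes was added after seeing the data. Tools were pandas 2.3.3, SciPy 1.17.1, NumPy 2.4.6 and matplotlib 3.10.9, under Python 3.11.15.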

Additional observations from a re-analysis of the deposited data

Results flagged for a closer look

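Solitary and clustered tRNA genes differed in opposite directions for different targets. The share of genes with an NRF2 peak was lower for solitary than for clustered genes, by -26.5 percentage points as a mean of 2 libraries (-18.2 and -34.9). For H3K4me3 the difference, solitary minus clustered, was -11.1 points (-13.2 and -9.02), and for H3K27ac it was 17.6 points (19.3 and 15.9). Each library of NRF2 and H3K4me3 thus moved one way and each library of H3K27ac the other. The difference between the targets was not itself tested. Solitary genes lay near a coding gene end in 42 of 136 cases and clustered genes in 64 of 293. Within near genes and within far genes, the shares held in both libraries differed in the same directions for NRF2 (38.1 against 84.4% and 22.3 against 55.0%) and H3K27ac (45.2 against 21.9% and 10.6 against 0.437%). In replicate 1 alone the NRF2 shares of near genes were closer, at 76.2 against 92.2%.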

How the results depend on the processing

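Of 194 values under alternatives, 125 kept their direction and stayed within the limits set for a like value, 68 moved and 1 turned its sign. The limit was a ratio for counts and the SD between libraries for differences. That SD ran from 1.34 points (H3K27ac, near minus far) to 11.8 (NRF2, solitary minus clustered), so the limits were unequally strict. Counts of 0 for BRG1 and SMARCC1 could change only with the 5000 bp window, so the 125 include values fixed in advance. The overlap of NRF2 with H3K4me3 was entered from each target's side, with the same values. Where no construction is named, the cause was not tested.

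Counting loci once left 143 with NRF2, and leaving out chromosome 6 left 121 genes with NRF2, 131 with H3K4me3 and 93 with both, since fewer genes were counted. With the 500 best peaks per library, H3K4me3 was held by 3 genes, H3K27ac by 2 and H3K4me1 by 0, and each overlap of NRF2 with H3K4me3 or H3K27ac, and of H3K4me3 with H3K27ac, came to 2. With 200 bp to both sides, H3K4me3 was held by 140 genes, H3K27ac by 8, H3K4me1 by 0, NRF2 with H3K4me3 by 105, NRF2 with H3K27ac by 3 and H3K4me3 with H3K27ac by 8. With 5000 bp, BRG1 was held by 1 gene, H3K4me1 by 5, H3K27ac by 79, NRF2 with H3K27ac by 53 and H3K4me3 with H3K27ac by 76. At −log10 p of at least 5, H3K27ac was held by 19 genes, with NRF2 by 8 and with H3K4me3 by 19, and at −log10 q of at least 1.3 NRF2 with H3K27ac by 11. A peak in either library gave 49 genes for NRF2 with H3K27ac and 2 for H3K4me1.

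The near minus far difference of NRF2 was 27.2 points at −log10 q of at least 1.3, 31.1 with a peak in either library and 33.0 without chromosome 6. That of H3K4me3 was 2.83 with 500 peaks, 20.6 at 200 bp, 27 by summits, 37.2 with either library, 43.0 without chromosome 6 and 46.7 with near set at 2000 bp. That of H3K27ac was 15.4 at −log10 p of 5, 23.3 at −log10 q of 1.3, 1.89 with 500 peaks, 5.04 at 200 bp, 48.2 at 5000 bp, 25.8 by summits, 33.2 by loci, 25.3 without chromosome 6, and 38.2 and 15.2 with near set at 2000 and 20000 bp.

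The solitary minus clustered difference of H3K4me3 turned to 2.21 with 500 peaks. It was -4.45 at −log10 p of 5, -1.49 at 200 bp, -21.1 at 5000 bp, -4.74 by summits, -12.7 with either library, -5.09 by loci and -17.8 without chromosome 6. That of NRF2 was -18.8 with either library. That of H3K27ac was 7.51 at −log10 p of 5, 9.14 at −log10 q of 1.3, 1.47 with 500 peaks, 1.58 at 200 bp and 19.0 with either library.

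With each library left out in turn, counts ran from 222 to 271 for NRF2, 222 to 231 for H3K4me3, 48 to 54 for H3K27ac, 1 to 2 for H3K4me1 and 0 for BRG1 and SMARCC1. NRF2 with H3K4me3 ran from 170 to 198, NRF2 with H3K27ac from 26 to 34 and H3K4me3 with H3K27ac from 41 to 50. Near minus far ran from 21.5 to 30.1 for NRF2, 32.5 to 37.8 for H3K4me3 and 26.5 to 28.4 for H3K27ac. Solitary minus clustered ran from -34.9 to -18.2 for NRF2, -13.2 to -9.02 for H3K4me3 and 15.9 to 19.3 for H3K27ac.

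With same-numbered libraries paired as a replicate block, the mean over pairs was 192 genes for NRF2 with H3K4me3, 36 for NRF2 with H3K27ac and 47.5 for H3K4me3 with H3K27ac. The labels do not say that a number marks a shared culture or day. Depth limits each absence, most of all for SMARCC1 with 600 and 572 peaks.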
